A study of Mus musculus with 6 samples.

Results

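The small proline-rich Sprr genes are described here across the liver, ovary and uterus of mice given BHPF. The 7 members are Sprr1a, Sprr2a2, Sprr2b, Sprr2d, Sprr2e, Sprr2f and Sprr2g, which 9 probes of the 55681 non-control probes measured. Sprr2a2 had 3 probes and the other 6 members had 1 probe each. The array carried 16 probes of 14 Sprr genes in all, so 7 probes of 7 further Sprr genes served for comparison. The members were chosen because Sprr probes were lower in the BHPF uterus in these same arrays, and their uterus ratios are therefore a description and not a test.

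Each of the 6 groups was measured on 1 single-colour microarray. All mice were immature CD-1 females, 24 days old by the labels. Control liver, control ovary and control uterus came from mice that received peanut oil, the vehicle, by gavage for 3 days. BHPF liver, BHPF ovary and BHPF uterus came from mice that received BHPF (fluorene-9-bisphenol, a substitute for bisphenol A) by the same route, at 50 mg/kg of body weight daily over 3 days. Each array held RNA pooled from 3 mice, so there was no replicate pool, and no test, p value or spread between animals could be given. The errors below are those of spots within an array only. The comparison of BHPF with control in each tissue asked which genes differed after exposure to a compound studied for activity against oestrogen signalling.

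Sprr proteins are short, proline-rich precursors of the cornified envelope, the protein shell beneath the membrane of squamous epithelial cells. Transglutaminases cross-link them to loricrin, involucrin and to each other. Their genes lie together in the epidermal differentiation complex on chromosome 3. In the rodent uterus, Sprr2 genes are known to be induced by oestrogen in the epithelium that lines the lumen.

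Several facts about the arrays bear on every value. The scanner files labelled control uterus and BHPF uterus were matched, in the authors' table of processed values, by the columns headed with each other's name, so every uterus direction below rests on the labels of the scanner files. Between 61.3% and 74.5% of probes were well above background on an array. In the uterus, 16 of 17 hepatocyte genes were at least 2-fold higher on the BHPF array, and the summed hepatocyte level there was 9.88% of that on the BHPF liver array, against 1.55% for the control arrays. Markers of each tissue were set beside the labels. All 12 ovary markers were evaluated (well above background on 1 or both arrays) in the ovary. So were all 14 markers of uterine stroma and muscle in the uterus, and all 17 hepatocyte markers with a probe in the liver. Such counts separate tissues poorly, since 17 hepatocyte markers were also evaluated in the uterus and 16 in the ovary. Of the stroma and muscle markers, 13 were evaluated in the ovary and 12 in the liver. Summed levels on the control arrays were highest in the labelled tissue. They were 60.74 for ovary markers (next, liver at 3.446), 146.2 for stroma and muscle (ovary at 70.03) and 581.2 for hepatocytes (ovary at 14.64). The control arrays and the BHPF arrays lay in different columns of 1 slide, so an effect of position cannot be told apart from that of BHPF.

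The proximal promoters are shown because several members were lower together, and so that the detected and the undetected Sprr2 genes can be compared. RefSeq sequences (GRCm38.p6) were available for 14 Sprr genes, among them 6 of the 7 members. Sprr2g was the member without one. Each line gives the 220 bases before the transcription start, 5′ to 3′ on the gene's strand. Capitals mark 3 motifs, TGANTCA (the AP-1 motif TGAGTCA or TGACTCA, loosened to any base at its centre), ATTTGCAT (the octamer bound by POU factors) and TATAAA (the TATA box).
Sprr2b (chr3:92316485-92316704, + strand): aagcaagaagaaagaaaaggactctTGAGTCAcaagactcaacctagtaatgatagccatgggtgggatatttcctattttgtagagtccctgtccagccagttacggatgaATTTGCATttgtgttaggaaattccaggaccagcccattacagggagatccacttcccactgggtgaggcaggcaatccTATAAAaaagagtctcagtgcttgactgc
Sprr2d (chr3:92338920-92339139, + strand): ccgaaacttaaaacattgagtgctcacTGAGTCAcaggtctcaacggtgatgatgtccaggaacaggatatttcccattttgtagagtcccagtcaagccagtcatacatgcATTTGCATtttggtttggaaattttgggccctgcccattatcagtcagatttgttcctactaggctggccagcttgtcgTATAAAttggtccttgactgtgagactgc
Sprr2e (chr3:92351923-92352142, + strand): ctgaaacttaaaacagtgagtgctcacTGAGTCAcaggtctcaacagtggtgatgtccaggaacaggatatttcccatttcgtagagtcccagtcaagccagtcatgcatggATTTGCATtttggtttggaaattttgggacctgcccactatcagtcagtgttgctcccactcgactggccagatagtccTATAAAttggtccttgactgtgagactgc
Sprr2f (chr3:92364967-92365186, + strand): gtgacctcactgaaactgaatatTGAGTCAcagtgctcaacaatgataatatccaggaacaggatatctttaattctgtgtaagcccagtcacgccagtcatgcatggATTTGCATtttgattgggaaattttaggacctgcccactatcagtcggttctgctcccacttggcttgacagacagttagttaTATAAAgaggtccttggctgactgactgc
Sprr2a2 (chr3:92250427-92250646, + strand): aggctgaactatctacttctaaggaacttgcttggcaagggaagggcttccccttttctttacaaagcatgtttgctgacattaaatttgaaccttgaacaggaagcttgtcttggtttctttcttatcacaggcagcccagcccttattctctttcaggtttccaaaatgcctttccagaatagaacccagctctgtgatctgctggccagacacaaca
Sprr1a (chr3:92485882-92486101, - strand): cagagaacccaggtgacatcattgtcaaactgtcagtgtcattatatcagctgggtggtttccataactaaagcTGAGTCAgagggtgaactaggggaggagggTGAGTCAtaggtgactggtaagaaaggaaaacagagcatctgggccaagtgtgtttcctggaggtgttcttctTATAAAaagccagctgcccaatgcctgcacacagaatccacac
Sprr2h (chr3:92385465-92385684, + strand): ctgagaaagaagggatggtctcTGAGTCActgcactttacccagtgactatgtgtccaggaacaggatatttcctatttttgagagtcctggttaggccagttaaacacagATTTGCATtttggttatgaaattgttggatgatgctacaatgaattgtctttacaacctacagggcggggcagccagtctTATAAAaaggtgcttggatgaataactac
Sprr2b, Sprr2d, Sprr2e and Sprr2f shared a layout in which the AP-1 motif began between 193 and 197 bases before the start, the octamer between 108 and 112 and the TATA box at 29. Sprr2h, whose probe was not above background on any array, had the same layout, with the motifs at 198, 109 and 29. Sprr1a had no octamer, and its 2 AP-1 motifs began 146 and 116 bases before the start. Sprr2a2 held none of the 3 motifs in this window.

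The motifs were searched on both strands in windows of the 250 bases before each start, and they were chosen after the Sprr sequences had been looked at. The loosened AP-1 motif was found in 9 of 14 Sprr windows, in that of Sprr1b only as TGAATCA, and in 6.75% of all 32851 promoter windows. The octamer was found in 7 of 14 and in 1.60% of all windows, and TATAAA in 10 of 14 and in 12.4%. The palindromic oestrogen response element, GGTCA and its reverse complement 3 bases apart, was in none of the Sprr windows and in 0.0639% of all windows. Its single arm GGTCA was in 2 Sprr windows, those of Sprr2f and Sprr3, and in 35.2% of all windows. The interferon-stimulated element, GAAA repeated after 2 bases of any kind, was in none of the Sprr windows and in 2.98% of all windows. These are matches of letters in a short window and say nothing of binding. The Sprr windows belong to related genes with alike promoters, so they are not 14 independent cases, and nothing is read from their shares. The promoters of Sprr2d and Sprr2e were identical at 89.3% of aligned bases, and those of Sprr2a1 and Sprr2a2 at 100%. The least alike pair, Sprr2a3 and Sprr4, still reached 47.7%. Likeness of promoters does not bear on the binding of probes, and no probe or transcript sequences were compared. Probes of related genes may hybridize to more than 1 transcript, and values named for 1 Sprr2 gene may hold signal of another.

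Most Sprr member probes had their highest level on the control uterus array. Of the 9 member probes, 8 were well above background on the control uterus array and 8 on the BHPF uterus array. In the ovary 6 were above background with vehicle and 4 with BHPF, and in the liver 3 with vehicle and 2 with BHPF. The level of a probe is given below as the log2 of its signal minus the 75th percentile of its array, so that a level of 0 equals that percentile.

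Sprr2f had processed signals, as the scanner software gave them with its own error, of 40603 ± 4060 on the control uterus array and 13689 ± 1369 on the BHPF uterus array. In the ovary they were 1434 ± 145 with vehicle and 210 ± 34.2 with BHPF. In the liver they were 15.97 and 25.9, both dim (not well above background). Sprr2f was thus detected in the uterus and, at a far lower level, in the ovary, and in both tissues the BHPF array was the lower one.

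Sprr2a2, measured by probe A_55_P2048855, had signals of 16159 ± 1616 in the control uterus and 2622 ± 264 in the BHPF uterus. The control ovary gave 436 ± 47.7, and the BHPF ovary gave 30.9, not well above background. The liver arrays gave 14.1 and 28.4, both not well above background. The order of the arrays was the same as for Sprr2f as far as the probe was measured. The other probes named for Sprr2a2 did not behave like it. Probe A_55_P1974976 was bright on all 6 arrays, with signals from 56697 in the BHPF liver to 77460.5 in the control ovary. Probe A_55_P2048853 was not well above background on any array, with signals from 15.0 to 52.9. The 3 probes are kept apart for this reason.

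Sprr2g had signals of 13868 ± 1387 in the control uterus and 5523 ± 554 in the BHPF uterus. In the ovary it was 220 ± 30.1 with vehicle and 32.8, not well above background, with BHPF. The liver arrays, at 15.5 and 31.0, were not well above background. Sprr2g therefore followed the same order of tissues as Sprr2f and Sprr2a2.

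Sprr2b and Sprr2d were above background in the uterus and on no other array. Sprr2b had signals of 3334 ± 334 in the control uterus and 215 ± 39.2 in the BHPF uterus. Its signals elsewhere lay between 14.7 and 63.1. Sprr2d had signals of 974 ± 101 in the control uterus and 198 ± 40.5 in the BHPF uterus, and between 14.6 and 39.5 elsewhere.

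Sprr2e and Sprr1a were measured outside the uterus as well. Sprr2e had signals of 614 ± 66.3 in the control uterus and 390 ± 51.5 in the BHPF uterus, 134 ± 23.1 and 148 ± 31.96 in the control and BHPF ovary, 137 ± 19.7 in the control liver and 113, not well above background, in the BHPF liver. Sprr1a, which codes for the other main class of envelope precursor in the family, was well above background on all 6 arrays. Its signals were 7559 ± 756 and 1866 ± 190 in the control and BHPF uterus, 1027 ± 105 and 1026 ± 106 in the ovary, and 1102 ± 111 and 2287 ± 230 in the liver. In level, the control uterus stood highest for Sprr1a at 0.50, followed by the BHPF liver at -0.53, the BHPF uterus at -1.28, the control liver at -1.64, the BHPF ovary at -2.64 and the control ovary at -2.87. The 2 ovary arrays, neighbours in that order, differed by 0.23 ± 0.21. No spot of a member was saturated.

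**Figure D1:**
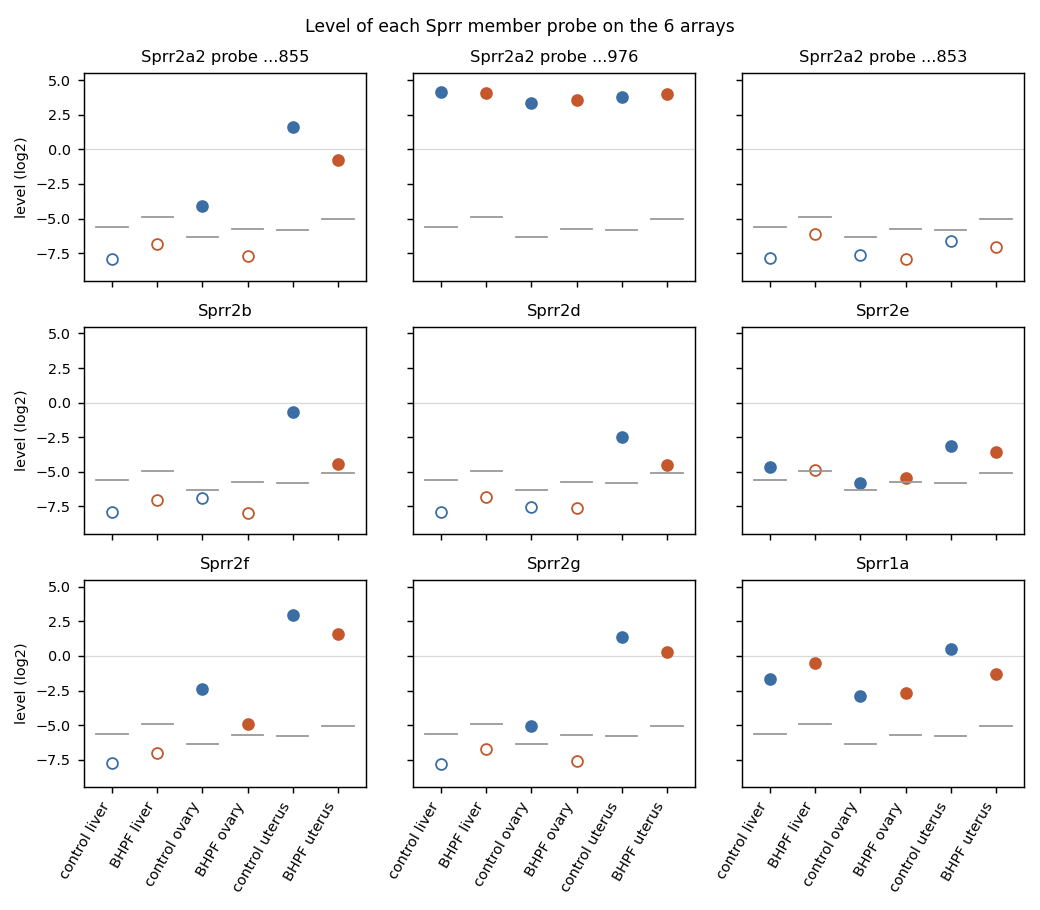
Level of each of the 9 Sprr member probes (vertical axis, log2 of the signal minus the array's 75th percentile) on the 6 arrays, control in blue and BHPF in orange. Filled circles are probes well above background, open circles are not, and each grey dash is the lowest level called well above background on that array. For 7 probes the control uterus stands highest and the BHPF uterus below it, while the bright Sprr2a2 probe is level across the arrays.

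In the control arrays, the uterus exceeded the ovary for each member probe measured in the uterus. The fold was 88.7 for Sprr2g, 52.1 for Sprr2a2 (A_55_P2048855), 39.8 for Sprr2f, 10.3 for Sprr1a and 6.46 for Sprr2e. Sprr2b and Sprr2d, not well above background in the ovary, were at least 50.2-fold and at least 14.7-fold higher in the uterus. The exception in size was the bright Sprr2a2 probe A_55_P1974976, at 1.32-fold. Thus 7 of 8 probes were at least 2-fold higher in the uterus, where 11.9% of all evaluated probes were. Members chosen as lower in the BHPF uterus had to give signal in the control uterus, so nothing is read from this share. Against the control liver, Sprr2f was at least 374-fold higher in the control uterus, Sprr2a2 (A_55_P2048855) at least 149-fold, Sprr2g at least 128-fold, Sprr2b at least 30.8-fold and Sprr2d at least 8.98-fold. Sprr1a was 4.43-fold and Sprr2e 2.89-fold higher in the uterus, while the bright Sprr2a2 probe was higher in the liver, with a log2 difference, uterus minus liver, of -0.38. These bounds are set by the lowest signal that was called well above background, between 70.0 and 135 on the 6 arrays.

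In the uterus, 6 of the 8 evaluated member probes were at least 2-fold lower with BHPF and none was at least 2-fold higher. Over all 38802 evaluated probes, 0.773% were at least 2-fold lower and 1.88% at least 2-fold higher. Nothing is read from this difference, as the members were chosen by it. In pooled tissue, fewer cells of a type and less RNA per cell cannot be told apart. The median log2 ratio, BHPF minus control, was -1.56 for the members and 0.01 for all evaluated probes.

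Sprr2b showed the greatest difference, -3.72 ± 0.30 on the log2 scale or 13.2-fold. Its ratio ranked 4 from the lowest among all 38802 evaluated probes, and was the lowest among the 35517 measured on both uterus arrays. The members were chosen by such ratios, so nothing is read from this rank. Sprr2a2 (A_55_P2048855) followed at -2.39 ± 0.20 (5.23-fold) and Sprr2d at -2.06 ± 0.33 (4.17-fold). With normexp background correction, an alternative way of removing local background, Sprr2b was at -2.93, Sprr2a2 at -2.39 and Sprr2d at -1.42, which places Sprr2d after Sprr1a, at -1.75 there. The ratios of Sprr2a2 and Sprr2d lay within their combined spot errors of each other. Sprr1a was lower by 3.44-fold, with a log2 ratio of -1.78 ± 0.21. Sprr2f had a ratio of -1.33 ± 0.20 (2.52-fold). Sprr2g lay just inside the 2-fold limit at -1.09 ± 0.20 (2.13-fold), and Sprr2e lay outside it at -0.42 ± 0.25 (1.34-fold). Every member probe with an evaluated ratio, apart from the bright Sprr2a2 probe, was thus lower on the BHPF uterus array. Sprr2b differed by more than the combined spot errors from each of the other members, but some neighbours in the order, such as Sprr2f and Sprr2g, did not. The bright Sprr2a2 probe was at 0.22 ± 0.20. For comparison, repeated spots of 1 probe gave a log2 ratio with an SD of 0.14 in the uterus.

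**Figure D2:**
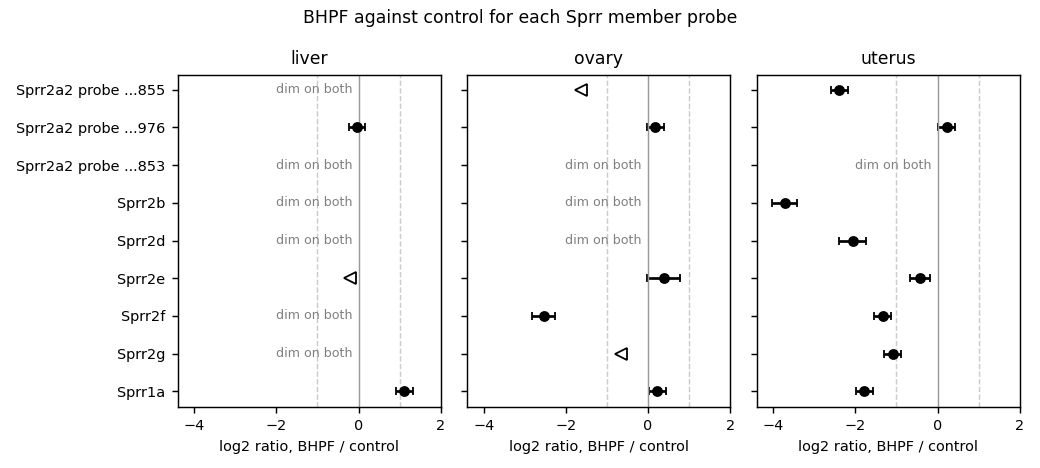
Log2 ratio of BHPF over control (horizontal axis) for each Sprr member probe in the liver, ovary and uterus. Points carry the spot error of the ratio, open triangles are bounds for probes not well above background on the BHPF array, dashed lines mark 2-fold, and probes not well above background on either array are marked as dim. In the uterus 6 probes lie beyond the lower dashed line, in the ovary 2, and in the liver Sprr1a lies beyond the upper one.

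The ovary ratios come from other arrays than the uterus ratios, but they too were known when the members were chosen. Of 6 evaluated member probes, 2 were at least 2-fold lower with BHPF and none at least 2-fold higher, where 0.593% of all 41674 evaluated probes were lower and 0.681% higher. Sprr2f had a log2 ratio of -2.54 ± 0.28, a 5.81-fold difference. It ranked 14 from the lowest among the 41674 evaluated probes, and 9 among the 38351 measured on both ovary arrays. With normexp its ratio was -1.89. Sprr2a2 (A_55_P2048855) was at least 3.10-fold lower. Sprr2g was at least 1.57-fold lower, a bound under 2-fold that the background of the BHPF ovary array sets. The members also measured in the liver did not share this direction. Sprr2e was at 0.38 ± 0.40, within its spot error of 0, Sprr1a at 0.23 ± 0.21 and the bright Sprr2a2 probe at 0.18 ± 0.20. The median over the 6 probes was -0.24, against 0.00 for all evaluated probes. For Sprr2b and Sprr2d no ovary ratio could be given.

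Markers of other tissues that an ovary sample can hold were set beside these values. Of 10 oviduct genes, 8 were below 0 in the ovary and 1, Foxj1, a regulator of motile cilia, was at least 2-fold lower with a log2 ratio of -1.16. The median of the oviduct genes was -0.44, and their summed level was 5.19 on the control and 4.34 on the BHPF ovary array. Of 20 epithelial genes used as markers of uterine epithelium, none differed by 2-fold in the ovary, 14 were below 0, and the summed level was 11.3 and 10.9. Among markers of uterine stroma, Hoxa10 was above background on the control ovary array alone, with a bound of -0.55, and Hoxa11 was dim on both ovary arrays. Of 10 evaluated neutrophil markers, 5 were at least 2-fold lower in the ovary, among them S100a8 at -3.13 and Stfa2 with a bound of -3.38. The median was -1.10 and the summed levels were 13.43 and 11.46. Most of both sums came from Csf3r, which hardly differed, with levels of 3.47 and 3.46, so they say little of the other neutrophil markers. Of 23 evaluated oestrogen-induced genes, 3 were at least 2-fold lower in the ovary, Ltf at -3.98, Lcn2 at -1.24 and Padi1 at -1.09, while the median was 0.01. Adipocyte markers leaned higher in the ovary, with 2 of 8 evaluated at least 2-fold higher, Cfd at 2.05 and Adipoq at 1.35, and 3 below 0. Their median was 0.26, with summed levels of 3.96 and 4.64. The part of oviduct, uterine, neutrophil or adipocyte RNA in the Sprr values of the ovary was not tested.

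Few Sprr probes were detected in the liver. Of 3 evaluated member probes, none was at least 2-fold lower, where 1.07% of all 36578 evaluated probes were, and 1 was at least 2-fold higher, where 6.02% were. That probe was Sprr1a, with a log2 ratio of 1.12 ± 0.21 (2.17-fold). The bright Sprr2a2 probe was at -0.04 ± 0.20, and Sprr2e had a bound of -0.21. With the array's 50th percentile in place of the 75th, Sprr1a in the liver was at 0.80, under 2-fold, while the median of all evaluated probes moved from 0.06 to -0.22. Sprr2b, Sprr2d, Sprr2f, Sprr2g and the other probes of Sprr2a2 were dim on both liver arrays.

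The other Sprr probes of the array were mostly dim. Sprr1b, Sprr2h, Sprr2i, Sprr2j-ps, Sprr2k, Sprr3 and Sprr4 were not well above background on any ovary or uterus array. Sprr4 was above background only on the control liver array, at 109 ± 20.6. Along chromosome 3, all Sprr2 genes with a probe from Sprr2a2 through Sprr2b, Sprr2d, Sprr2e and Sprr2f to Sprr2g were detected in the uterus. The next ones, Sprr2h, Sprr2i, Sprr2j-ps and Sprr2k, were not detected. The run has gaps, since Sprr2a3, between Sprr2a2 and Sprr2b, and another gene, between Sprr2b and Sprr2d, had no probe. Sprr1a, on the far side of the undetected Sprr1b and Sprr3, was detected. Of 17 Sprr genes in RefSeq, 14 had a probe of their own here, and Sprr2a1 and Sprr2a3 were among those without one.

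**Figure D3:**
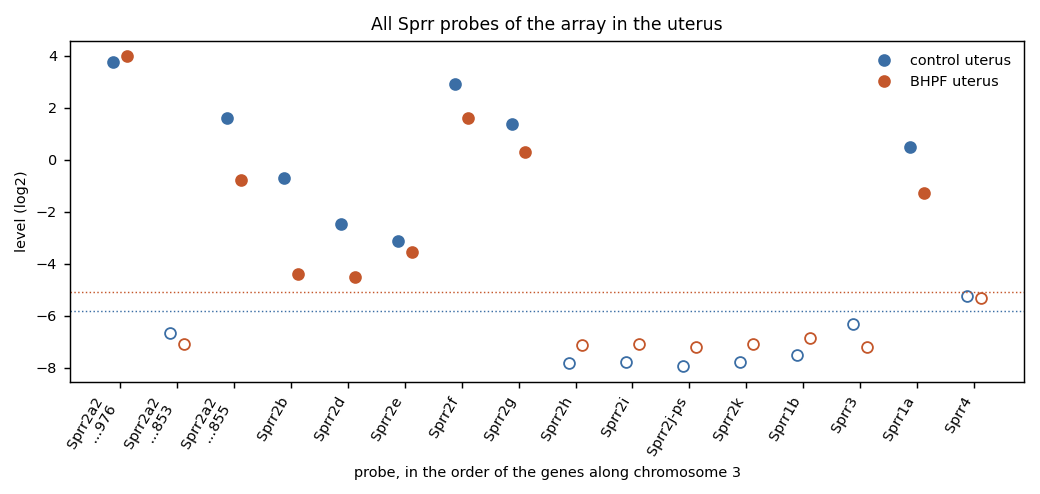
Level (vertical axis, log2 of the signal minus the array's 75th percentile) of all 16 Sprr probes on the control uterus array (blue) and the BHPF uterus array (orange), ordered by gene along chromosome 3. Filled circles are well above background, open ones are not, and dotted lines are the lowest level called well above background on each array. The detected probes form a run from Sprr2a2 to Sprr2g, broken only by the dim Sprr2a2 probe, with Sprr1a apart from it.

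The partners to which Sprr proteins are cross-linked, and other genes of the epidermal differentiation complex, were mostly within 2-fold in the uterus. Of 43 cornified envelope genes with a probe, 22 were dim on both uterus arrays, and of the other 21 none differed by 2-fold. Their median log2 ratio was 0.07. Loricrin (Lor), the main envelope protein of the epidermis, was at 0.44, and the envelope plakins Evpl and Ppl were at 0.26 and 0.02. The transglutaminase Tgm3 was at 0.73. Of 12 evaluated S100 genes of the same region, 2 were at least 2-fold lower, S100a8 at -1.52 and S100a9 at -1.003, both carried by neutrophils. The brightest of the others, S100a10, was at 0.22.

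Genes known for induction by oestrogen in the uterus showed no 2-fold difference in 23 of 23 evaluated cases, 12 below and 11 above 0, with a median of -0.09. Lcn2, an iron-siderophore carrier, was at -0.69 and Igf1, a growth factor of the stroma, at -0.44. Complement C3 was at -0.09 and lactotransferrin (Ltf) at 0.04. The 6 Sprr probes picked as at least 2-fold lower lie below every gene of this list by that choice, so nothing is read from it. The other evaluated Sprr probes, Sprr2e at -0.42 and the bright Sprr2a2 probe at 0.22, lay within the range of the list. A list gene is the mean of its evaluated probes, while Sprr probes are single, so the units differ.

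Cell type markers were set beside the Sprr values in the uterus. Of 20 markers of uterine epithelium, the cell layer in which Sprr2 genes are known, none differed by 2-fold, the median was 0.05, and the summed level was 84.7 on the control and 86.9 on the BHPF array. Krt8 was at -0.13, Krt18 at 0.13 and Krt19 at 0.24. The 22 squamous epithelium markers, which would accompany vaginal or cervical tissue, had a summed level of 7.10 and 6.38. Of 17 evaluated squamous markers, 1 was at least 2-fold lower, Serpinb5, whose bound was -2.20. Of these 17, 8 were below and 8 above 0, with a median of 0.00. Trp63, the transcription factor of squamous basal cells, was at -0.63, Calml3 at -0.48 and Sbsn, the brightest of the list in the control uterus, at -0.17. Krt17 was at 0.64, Krt13 at 0.05 and Krt10 at 0.06, and Krt6a, Krt16, Dsg3, Dsc3 and Fam83c were dim on both arrays.

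Neutrophil and adipocyte markers leaned lower on the BHPF uterus array as well. Of 11 evaluated neutrophil markers, 8 were below and 3 above 0, and 5 were at least 2-fold lower, where 0.773% of all evaluated probes were. The median of these markers was -0.95, with summed levels of 21.5 and 18.1. Most of both sums came from Csf3r, which hardly differed, with levels of 3.83 and 3.86. Of 7 evaluated adipocyte markers, 6 were below and 1 above 0, and 3 were at least 2-fold lower. Their median was -0.64 and the summed levels were 5.08 and 2.25. Adiponectin (Adipoq) was at -3.31 and Cfd at -2.71. Hepatocyte markers had a median of 3.99, with albumin (Alb) at 4.28. The part of squamous, neutrophil, adipocyte or liver RNA in the Sprr ratios was not tested.

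**Figure D4:**
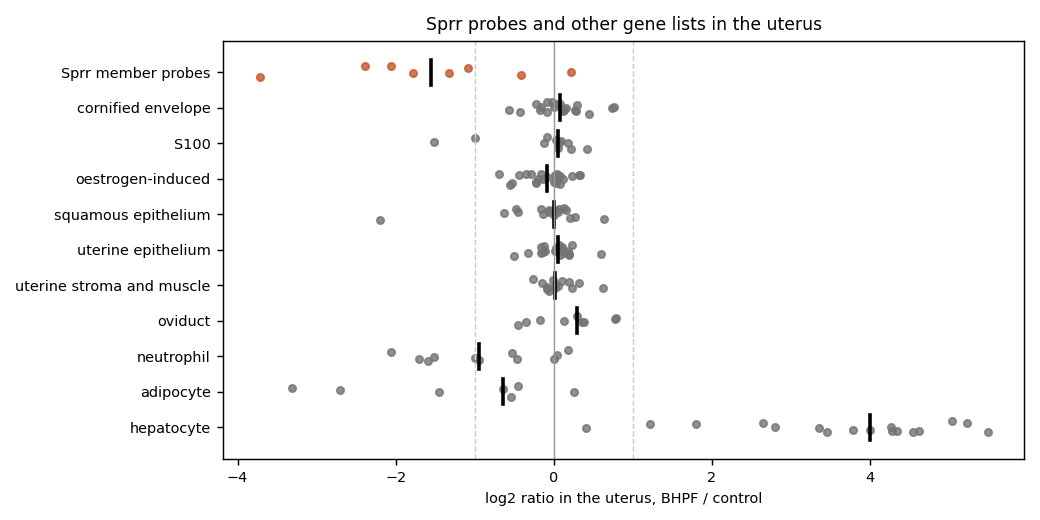
Log2 ratio of BHPF over control in the uterus (horizontal axis) for the 8 evaluated Sprr member probes (orange) and for the evaluated genes of 10 other lists (grey). Each point is 1 Sprr probe or the mean of a gene's evaluated probes, with vertical bars at the medians and dashed lines at 2-fold. The Sprr median of -1.56 lies below the medians of the other lists, of which the neutrophil list at -0.95 is nearest and the hepatocyte list at 3.99 is farthest. The Sprr members were chosen for low ratios in these same arrays, so nothing is read from the place of their median.

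The 5 Sprr probes detected in the control uterus and on neither liver array, those of Sprr2a2 (A_55_P2048855), Sprr2b, Sprr2d, Sprr2f and Sprr2g, were averaged into 1 profile over the 6 arrays. Levels of dim probes were set to the lowest level called well above background on their array, which applied to 4 of the 6 values of Sprr2b and of Sprr2d, and the choice of probes detected in the uterus and not in the liver itself makes their profiles alike. Between pairs of these probes, Pearson's r over the 6 arrays ran from 0.758 for Sprr2f with Sprr2d to 0.989 for Sprr2d with Sprr2b. All rest largely on the contrast of uterus with the other tissues. The profile was set beside 6462 probes of other genes, with the best probe kept for each gene. The genes whose levels ran most like it were Dbh (r = 0.993), Cftr (0.992), Atp10b (0.991), Sfn (0.989), Casq1 (0.989), Syt8 (0.985), Lrrc4b (0.985) and Tnnc2 (0.982). The profile itself was lower on the BHPF uterus array, so ratios below 0 follow from this choice. Their log2 ratios in the uterus lay between -1.18 for Lrrc4b and -0.48 for Tnnc2, with Sfn, an epithelial adaptor protein also called stratifin, at -1.02 and Cftr, an epithelial chloride channel, at -0.91. In the ovary Sfn was at -0.53, Cftr at -0.15 and Dbh at -0.13. These are descriptions over 6 arrays that share a slide.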

How the data were processed

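Total RNA pooled from 3 mice a group was labelled with Cy3 and hybridized to 1 Agilent mouse 8 x 60K array for each of control and BHPF liver, ovary and uterus. The authors read the scans out in Agilent Feature Extraction (version 9.1 in the submitters' processing notes, 11.5.1.1 per the file headers), and the deposited scanner files give each spot's processed intensity, background-subtracted and linear, with no normalization between arrays. The authors also deposited log2 values from GeneSpring, each the log2 intensity minus a constant of its array near the 75th percentile. Their centring percentile is not given in the sources used here. The control uterus and BHPF uterus columns of that table held, for 100% of 38802 values within 0.001, the scanner values of the other array. The column medians were -1.25, -1.17, -1.66, -1.64, -1.22 and -1.23, as headed, for control and BHPF liver, ovary and uterus. Scanner files were used under their own labels. The study's methods give postnatal day 21 for the first dose and day 24 for collection, which fits the age in the labels, while another place in its text gives day 24 for the first dose.

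Control and outlier spots were left out, spots of the same probe were averaged, and each array was centred, on the log2 scale, at the 75th percentile of its 55681 probes. A probe was evaluated when well above background on at least 1 array compared. Where it was so on 1 array only, its ratio was taken against the other array's lowest level called well above background, or its own level if higher, and is a bound. Differences of at least 2-fold are counted, without a test. Spot errors of ratios combine the scanner software's errors. That error was 10.0% to 21.6% of the signal of member spots well above background. Repeated spots gave an SD of 0.09 to 0.10 on the log2 scale within an array, and 0.12 to 0.17 at signals under 500. The ratio of a list gene is the mean over its evaluated probes. The summed level of a list adds its genes' linear levels relative to the 75th percentile, dim genes included. Precision is limited by the number of arrays.

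Symbols came from probe accessions through a RefSeq table (GRCm38.p6), with a match for 26762 probes and 20284 symbols. The array design names another build, so no probe coordinates are given. Members, lists, markers and motifs were chosen with earlier results of these data known. Named genes are all Sprr probes, from each list at most 4 with the largest uterus ratio and the 4 brightest in the control uterus, and the 8 genes most like the Sprr profile. Other list genes named (Foxj1, Hoxa10, Hoxa11, Padi1 and markers not above background) and the ovary values of profile genes were chosen after their values were seen. Python 3.11.15, numpy 2.4.6, pandas 2.3.3, Biopython 1.88, R 4.3.3 and limma 3.58.1 (normexp, offset 50) were used. The comparison was tested on simulated data, with changes well over 2-fold planted in probes far above background. That test did not cover true differences near 2-fold, changes in dim probes or variation between pools. Alternatives were normexp background, the 50th percentile, the percentile over probes detected on all arrays, quantile normalization, the authors' log2 table, bounds replaced by own values, other filters on dim probes and a 4-fold limit.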

Additional observations from a re-analysis of the deposited data

Results flagged for a closer look

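Sprr1a ran in opposite directions in 2 tissues, with a log2 ratio of 1.12 in the liver and -1.78 in the uterus. Sprr2e was at 0.38 in the ovary and -0.42 in the uterus, both under 2-fold, and its ovary value lay within its spot error of 0. With 1 array a group, neither difference between tissues was tested.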

How the results depend on the processing

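No paired analysis was possible because each tissue had 1 array a group, and for the same reason no array could be left out. A fit over the 3 tissues, which would ask for an effect common to them, was not run. The count of 6 member probes at least 2-fold lower in the uterus was 3 at 4-fold and 0 with the authors' value table as headed, whose uterus columns hold each other's array. With that table the uterus ratios reversed to 3.72 for Sprr2b, 2.39 for Sprr2a2 (A_55_P2048855), 2.06 for Sprr2d, 1.78 for Sprr1a, 1.33 for Sprr2f and 1.09 for Sprr2g, and the hepatocyte median to -4.26. The exchanged columns were also tried, an alternative chosen after seeing the data. Without the table as headed, Sprr2b lay between -3.80 and -2.93, Sprr2d between -2.15 and -1.42, Sprr2g between -1.22 and -1.08 and Sprr2e between -0.50 and -0.19, the weakest values of Sprr2b, Sprr2d and Sprr2e coming with normexp. The ovary count of 2 was 1 with only probes well above background on both arrays, 4 with no filter on dim probes, 1 at 4-fold, and 3 both with own values in place of bounds and with the authors' table. Over all probes, those at least 2-fold lower in the uterus numbered 300, but 197 with normexp, 571 with own values in place of bounds, 175 with only probes above background on both arrays, 945 with no filter and 63 at 4-fold. In the ovary they numbered 247, but 157, 622, 183, 1156 and 32. Signals near the background limit bound what could be seen of Sprr2b, Sprr2d and Sprr2g outside the uterus.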
